A study of Mus musculus with 36 samples.

Results

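The pyruvate dehydrogenase kinases Pdk1, Pdk2, Pdk3 and Pdk4, the phosphatase Pdp2 and the subunits of the enzyme that they act on, Pdha1 and Pdhb, were followed through a steroid experiment in mouse astrocytes. Members were taken by gene name: 9 probes of the array's own annotation carried the name of 6 of the 7 genes. A further 5 probes carried an older name of a member, 4 for Pdp2 (listed as 4833426J09Rik) and 1 for Pdk1 (D530020C15Rik), which gave 14 of 45281 probes and 7 of 28908 gene names on the array. Of these, 12 passed the filter for dim probes and entered the tests together with the rest of the 28397 probes that passed it. The remaining pair, Pdk1 ILMN_1237512 and Pdp2 ILMN_1232249, was brighter than the array median on 0 arrays.

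Primary cultures were made from the brains of newborn C57B/6 pups and are labelled as cortical astrocytes, although the growth protocol names cortex or hippocampus as the source. They received vehicle, 100 nM corticosterone (the main glucocorticoid of the mouse), 500 nM RU486 (mifepristone, an antagonist of the glucocorticoid and progesterone receptors) or both agents together. RNA was taken after 2, 4 or 6 h, which gave 12 groups of 3 bead arrays, 36 in all, and all groups share the strain and a serum-containing medium. Whether the 3 arrays of a group stand for different cultures is not given in the labels, and the spread that the p-values rest on may be technical. In cultures of mixed cells, fewer cells of a type and less RNA per cell cannot be told apart.

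Pyruvate dehydrogenase is the mitochondrial complex that turns pyruvate into acetyl-CoA and so joins glycolysis to the citric acid cycle. Its kinases phosphorylate the alpha subunit of the first component, encoded by Pdha1, and switch the complex off. The phosphatases remove those phosphates and switch it on again. In liver, muscle and heart, Pdk4 is known as the kinase that is raised in fasting and by glucocorticoids, and astrocytes are known for sending much of their pyruvate to lactate.

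Each array has a median intensity between 110.5 and 111.2, so an intensity near that level is close to the background. Of these arrays, 34 correlated with the rest at a median r of 0.952 to 0.989, while vehicle 6 h replicate 1 (0.727) and corticosterone with RU486 6 h replicate 3 (0.858) stood apart. On the first of those, 7 of the 12 tested member probes lay below the range of the other 34 arrays and 1 above. On the second, 6 lay below and 3 above. The brightest Pdhb probe read 105.9 and 194.8 on these arrays and 488.9 to 2497.9 on the others, and Pdk1 read 162.9 and 235.6 where the others read 358.0 to 546.9. Every result is therefore given with all arrays and, where it differs, without these 2. Where groups of 3 arrays are said not to overlap, this only describes their readings. The share of all probes whose groups did not overlap was not counted, so such a gap is not set apart from the rest of the array.

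**Figure D1:**
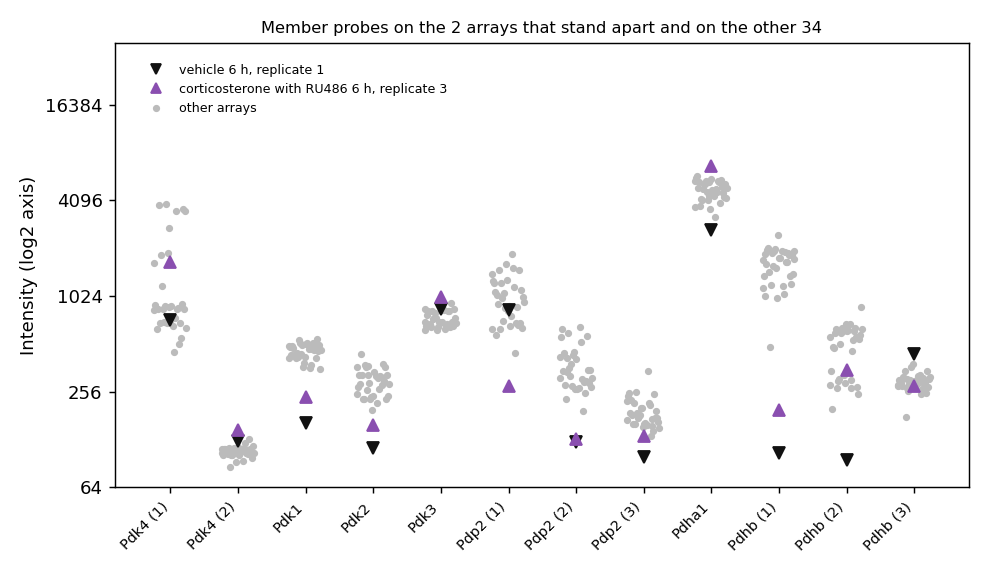
Intensity (log2 axis) of the 12 tested member probes on each array; numbers in brackets order the probes of a gene by brightness, grey points are the 34 other arrays and large triangles the 2 that stand apart. Pdk1, Pdk2 and the brightest Pdhb probe lie below all grey points on both arrays, while the brighter Pdk4 probe lies within them.

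The 300 bases around its start, from 250 before to 50 after, are shown because this is the member with the largest corticosterone change, and those of Pdp2 because 1 of its probes was called when RU486 was added and the other 2 tested ones over time. Both come from the RefSeq promoter table (build GRCm38.p6), Pdk4 from chr6:5496229-5496528 on the minus strand and Pdp2 from chr8:104591222-104591521 on the plus strand. Capitals mark the CCAAT box on either strand.

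Pdk4: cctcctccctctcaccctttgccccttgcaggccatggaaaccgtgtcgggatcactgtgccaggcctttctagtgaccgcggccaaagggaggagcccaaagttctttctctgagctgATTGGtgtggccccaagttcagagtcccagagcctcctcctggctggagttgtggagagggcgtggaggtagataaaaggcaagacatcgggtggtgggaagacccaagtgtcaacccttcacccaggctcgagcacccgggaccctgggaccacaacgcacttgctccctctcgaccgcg

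Pdp2: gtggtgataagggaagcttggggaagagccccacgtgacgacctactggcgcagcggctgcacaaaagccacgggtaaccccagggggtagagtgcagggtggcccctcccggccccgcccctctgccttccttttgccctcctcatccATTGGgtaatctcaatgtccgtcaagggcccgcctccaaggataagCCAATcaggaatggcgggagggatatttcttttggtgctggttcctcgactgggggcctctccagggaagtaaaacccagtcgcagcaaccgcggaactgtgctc

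Of the 7 members, 7 had an entry in that table, with 9 windows between them. The Pdk4 and Pdp2 windows have the same base composition, 60.67% G and C, where the median of 32851 promoters is 52.67%. The Pdk4 window holds 1 CCAAT box (reverse strand, at -131 from the start), a motif found in 37.4% of all these promoters on either strand. Pdp2 holds 2 CCAAT boxes (at -101 and -55) and 1 GC box, GGGCGG (at -135), which 35.7% of promoters hold. The full palindrome of the glucocorticoid receptor (0.00913% of promoters) and a relaxed form of it (0.475%) were found in 0 of the 9 windows. The single arm TGTTCT, which forms part of the full palindrome and occurs in 19.0% of promoters, was found 2 times, both in the second Pdk1 window. The hypoxia core ACGTG (19.6%) matched Pdp2 on both strands of 1 palindrome, at -219 and -218. It was also found in the second Pdk2 window (at -126 and -125), in Pdk3 (at -53) and in Pdhb (at -248). Windows of Pdk2, Pdk3 and Pdhb hold CCAAT boxes too, and those of Pdk1, Pdk3 and Pdhb hold GC boxes. The FoxO site TGTTTAC (3.65% of promoters), the nuclear receptor sites AGGTCA (16.3%), its direct repeat spaced by N, as bound by PPAR (0.0396%), and TCAAGGTCA (0.423%), which holds AGGTCA, and the TATA box TATAAA (13.6%) were searched on both strands as well and found in 0 windows. These are matches of letters within short windows and say nothing of sites outside them.

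Corticosterone raised Pdk4 at every time. With vehicle, the brighter Pdk4 probe, ILMN_1259322, read 455.7, 557.8 and 900.5 at 2 h, 639.2, 706.8 and 689.8 at 4 h, and 719.4, 509.9 and 648.1 at 6 h. With corticosterone it read 1663.9, 1868.1 and 1909.9 at 2 h, 2738.8, 3526.2 and 3632.3 at 4 h, and 3532.6, 3828.8 and 3902.2 at 6 h. The lowest corticosterone array of each time lay above the highest vehicle array, so the groups did not overlap. The log2 change was 1.57 (SE 0.22) at 2 h, 2.27 at 4 h and 2.60 at 6 h, which is 2.96-fold, 4.83-fold and 6.06-fold (limma adjusted p = 0.000838, 3.78e-07 and 1.6e-08). Over the 3 times the mean change was 2.15 (SE 0.13), or 4.42-fold, and 2.18 without the 2 arrays. Fitted on the arrays of the compared groups alone, the change was not called at 2 h (adjusted p = 0.108) and 6 h (adjusted p = 0.0821). Pdk4 was the 1 member called in each of these comparisons, where 0.102% (2 h), 0.736% (4 h), 0.838% (6 h) and 2.52% (mean of the times) of all probes were called.

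**Figure D2:**
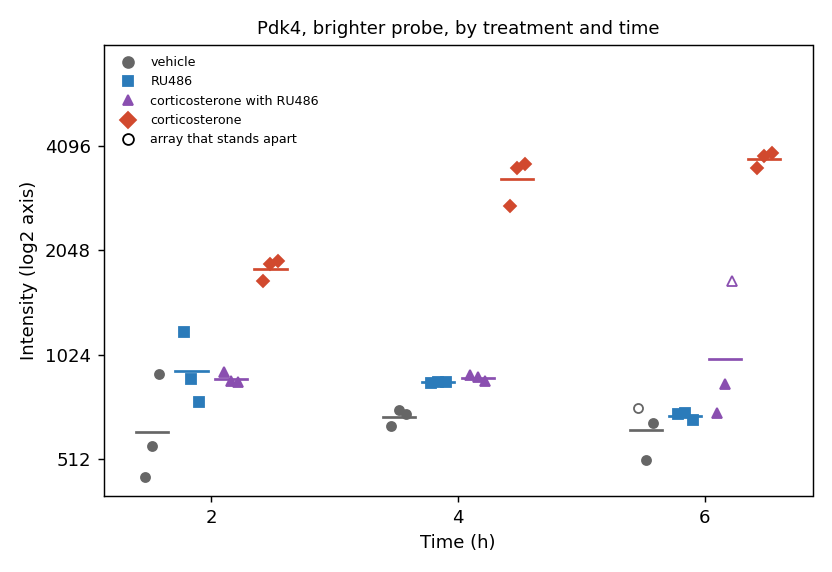
Intensity of the brighter Pdk4 probe (log2 axis) against time in hours for the 4 treatments, 3 arrays each; bars are means of log2 values and open symbols the arrays that stand apart. All corticosterone arrays lie at 1663.9 or above, and the arrays with RU486 or vehicle alone at 1189.6 or below.

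The larger size at later times was not a called difference. The corticosterone effect was greater by 0.71 (95% interval 0.05 to 1.36) at 4 h than at 2 h, by 1.03 (0.38 to 1.68) at 6 h than at 2 h, and by 0.33 (-0.32 to 0.98) at 6 h than at 4 h. The limma adjusted p-values were 1, 0.598 and 0.633, in comparisons where 0.00704%, 0.0563% and 0.0% of all probes were called and 1, 3 and 3 member probes had an unadjusted p under 0.05. The 6 h against 2 h difference was 1.14 without the 2 arrays (adjusted p = 0.05) and was called with array weights, at 1.20 (adjusted p = 0.000761, 0.472% of all probes called). Without steroid, Pdk4 in vehicle differed by 0.02 (95% interval -0.44 to 0.48) between 6 and 2 h.

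RU486 brought Pdk4 down in the presence of corticosterone. With both agents it read 913.1, 856.5 and 851.6 at 2 h, 892.8, 880.1 and 860.7 at 4 h, and 694.4, 841.8 and 1670.0 at 6 h, the last on the array that stands apart. No array with both agents reached the lowest corticosterone array of its time. The change against corticosterone was -1.05 (SE 0.22) at 2 h, -1.90 at 4 h and -1.92 at 6 h, or -2.29 at 6 h without the 2 arrays. Its limma adjusted p was 0.0228 at 2 h, 1.36e-05 at 4 h and 6.52e-06 at 6 h. Leaving out single arrays of the groups compared ended the 2 h call in 5 of 6 fits (adjusted p = 0.0612 to 0.131), and the 6 h call in the fit on the compared groups alone (adjusted p = 0.337). The mean over the times was -1.62 (SE 0.13, adjusted p = 2.46e-09), and -1.75 without the 2 arrays.

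Pdk4 with both agents lay above vehicle by value, and so did Pdk4 with the antagonist alone. RU486 alone read 1189.6, 869.4 and 748.4 at 2 h, 847.2, 854.1 and 852.6 at 4 h, and 690.0, 695.9 and 662.6 at 6 h. Its groups overlapped with vehicle at 2 h and lay above it at 4 h. At 6 h they overlapped only through the vehicle array that stands apart, at 719.4. Against vehicle, Pdk4 differed by 0.59, 0.33 and 0.14 with RU486 alone and by 0.51, 0.37 and 0.68 (0.41 without the 2 arrays) with both agents, in comparisons that share the vehicle arrays. None of these single-time values passed in the fit of all arrays, equally weighted. With array weights, limma called both agents at 4 h (adjusted p = 0.00156) and 6 h (0.00189), and RU486 alone at 4 h (0.0109). In these weighted comparisons 4145 to 10533 of the 28397 probes were called. The fit on the compared groups alone also called both agents at 4 h (adjusted p = 0.00581). As a share of the corticosterone effect on the log2 scale, the value with both agents was 32.8% at 2 h, 16.4% at 4 h and 26.1% at 6 h, the last 15.2% without the 2 arrays. The value with RU486 alone was 37.4%, 14.5% and 5.39% of it (9.16% at 6 h without the 2 arrays). The mean over the times was 0.35 (SE 0.13, adjusted p = 0.361) for RU486 alone and 0.52 (SE 0.13, adjusted p = 0.0669) for both agents. Both passed without the 2 arrays, at 0.39 (adjusted p = 0.0477, 1.31% of all probes called) and 0.43 (adjusted p = 0.0174, 4.7% called).

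The corticosterone effect on Pdk4 was larger without RU486 than with it, by 1.97 on the log2 scale (SE 0.18, 95% interval 1.60 to 2.35, limma adjusted p = 9.69e-08), and by 2.14 without the 2 arrays. It was the 1 member called in this comparison, in which 4.94% of all probes were called. Without the 2 arrays Pdk1 was called as well, at -0.28 (SE 0.09, adjusted p = 0.0327; 0.01 with all arrays), where 18.0% of all probes were called. Ranked by mean, the 12 groups placed corticosterone at 6, 4 and 2 h above the other 9. Corticosterone at 2 h overlapped the next group, both agents at 6 h, only through the array that stands apart. Neighbours in this order overlapped, except that corticosterone at 2 h lay wholly below 4 h, and RU486 at 6 h wholly below RU486 at 4 h.

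The dimmer Pdk4 probe, ILMN_1216259, read 86.0 to 147.5 over all arrays and was above the array median on 13 of 36. Its mean change with corticosterone was -0.03 (95% interval -0.18 to 0.11), so the 2 probes of this gene disagreed, and the result rests on the brighter one.

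In the fit of all arrays, equally weighted, the other kinases gave no call against vehicle. Without the 2 arrays, Pdk2 was called higher for both agents against vehicle over the mean, at 0.38, beside 4.7% of all probes. With array weights Pdk1 was called lower for corticosterone over the mean (-0.15, limma adjusted p = 0.0282, 7236 of 28397 probes called). Weighting gave further calls, such as Pdk2 and Pdk3 for both agents at 6 h (4145 probes called). Pdk1, the kinase known as a target of hypoxia signalling, had a mean change with corticosterone of 0.02 (95% interval -0.29 to 0.33), and -0.15 (-0.28 to -0.02, adjusted p = 0.138) without the 2 arrays. At 4 h Pdk1 read 424.1, 480.3 and 459.7 with corticosterone, wholly below 496.4, 543.5 and 509.4 with vehicle. At 2 h these treatments overlapped, and at 6 h only through the vehicle array that stands apart. Pdk2, the kinase found in most tissues, differed by 0.07 (-0.27 to 0.41). Pdk3, known as the kinase least restrained by pyruvate, differed by -0.09 (-0.22 to 0.03). Over all 11 tested probes other than the brighter Pdk4 probe, the mean changes with corticosterone ran from -0.11 to 0.58, or from -0.24 to 0.12 without the 2 arrays. The median of the 12 members was 0.05 and that of all probes -0.02.

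RU486 added to corticosterone called more members, and this is also the comparison in which most probes of the whole array were called after the vehicle time course. Averaged over the times, limma called 4 of the 12 member probes, Pdk3 and Pdha1 higher and Pdk4 and Pdp2 lower, beside 10.4% of all probes (6.12% higher, 4.25% lower). It called 7 of 12 once those 2 arrays were left out, with Pdk1, Pdk2 and 1 Pdhb probe added, beside 27.4% of all probes. At single times the count was 1 (0.69% of all probes) at 2 h, 1 (2.33%) at 4 h and 2 (1.17%) at 6 h. These comparisons share the corticosterone arrays with those against vehicle.

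Pdk3 rose slightly when RU486 was added. The probe ILMN_2676876 read 628.3, 653.2 and 652.4 with corticosterone at 2 h, 693.9, 686.8 and 698.2 at 4 h, and 739.8, 677.3 and 745.0 at 6 h. With both agents it read 666.7, 658.8 and 735.7 at 2 h, 805.8, 705.3 and 819.5 at 4 h, and 931.8, 847.8 and 1011.4 at 6 h. The groups did not overlap at any time, with the gap smallest at 2 h. The mean change was 0.21 (SE 0.06, adjusted p = 0.0271), and 0.19 (adjusted p = 0.0127) without the 2 arrays. Leaving out single arrays ended the call in 5 of 18 fits: those without corticosterone 6 h replicate 2, and corticosterone with RU486 2 h replicate 3, 4 h replicates 1 and 3, and 6 h replicate 3. Against vehicle, both agents together gave 0.11 (adjusted p = 0.45). At 4 h vehicle read 776.7, 741.1 and 833.5, so corticosterone lay wholly below vehicle there, while both agents overlapped it. At 2 and 6 h corticosterone and vehicle overlapped.

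Pdk2 and Pdk1 were not called with all arrays weighted equally, and were called higher when the 2 arrays were left out or when arrays were weighted. Pdk2 (ILMN_2737658) read 246.6, 231.5 and 229.8 with corticosterone at 2 h and 366.4, 326.6 and 363.6 with both agents, and at 4 h 195.9, 267.8 and 229.1 against 327.0, 339.8 and 316.1. Its groups did not overlap at 2 and 4 h. At 6 h they did, with 241.0, 326.8 and 372.7 against 384.3, 366.1 and, on the array that stands apart, 157.7. The mean change was 0.32 (SE 0.17, adjusted p = 0.275) with all arrays and 0.46 (SE 0.10, adjusted p = 0.000811) without the 2, when the changes at 2 h (0.58) and 4 h (0.52) were called too, beside 8.45% and 15.0% of all probes. Pdk1 (ILMN_1229318) differed by 0.11 (SE 0.15, adjusted p = 0.771) and, without the 2 arrays, by 0.23 (SE 0.06, adjusted p = 0.00752).

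The substrate subunits differed from each other. Pdha1, which carries the phosphorylated sites, read 3709.0, 4141.9 and 4382.6 with corticosterone at 2 h, 3632.3, 4611.8 and 4296.7 at 4 h, and 4242.7, 3803.7 and 4637.3 at 6 h. With both agents it read 4578.4, 5862.5 and 5221.2 at 2 h, 5466.0, 4779.0 and 5386.0 at 4 h, and 5505.8, 5429.9 and 6750.7 at 6 h. Every array with both agents lay above every corticosterone array of its time. The mean change was 0.38 (SE 0.10, adjusted p = 0.0112), and 0.35 (adjusted p = 0.00211) without the 2 arrays, and it was called in 28 of 28 alternatives. Corticosterone against vehicle gave -0.10 (95% interval -0.31 to 0.10), and both agents against vehicle 0.28 (adjusted p = 0.216). At 4 h vehicle read 4927.2, 5225.8 and 5575.2, so corticosterone lay wholly below vehicle there, while both agents overlapped it. At 2 and 6 h corticosterone and vehicle overlapped. The 4 h difference from vehicle was called only with array weights, where 9840 of the 28397 probes were called, among the fits with and without the 2 arrays.

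Pdhb, the beta subunit of the same component, has 3 probes, and the fit of all arrays, equally weighted, called none in any comparison. With array weights Pdhb was called for corticosterone against vehicle and for RU486 added, at 4 h and over the mean. It was also called for RU486 alone at 4 h and for vehicle over time. In these weighted comparisons 7236 to 12843 of the 28397 probes were called. With equal weights, the mean changes of the 3 probes when RU486 was added to corticosterone were -0.59 (95% interval -1.41 to 0.23), -0.21 (-0.67 to 0.26) and -0.22 (-0.39 to -0.05, adjusted p = 0.101). Leaving out the 2 arrays gave -0.24, -0.13 and -0.22, and of these ILMN_1247561 passed (SE 0.08, adjusted p = 0.0379). The brightest, ILMN_3041839, showed how far 1 array can carry a mean: in vehicle at 6 h it read 105.9, 1900.0 and 1742.1. Corticosterone against vehicle at 6 h was 1.49 for it with all arrays (adjusted p = 0.268) and 0.12 without the 2. With RU486 alone at 2 h it read 488.9, 994.5 and 1055.2 against 1177.0, 1368.5 and 1367.9 in vehicle, a change of -0.70 that was called without the 2 arrays (adjusted p = 0.029, 2.78% of all probes called) and not with them (adjusted p = 0.934).

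**Figure D3:**
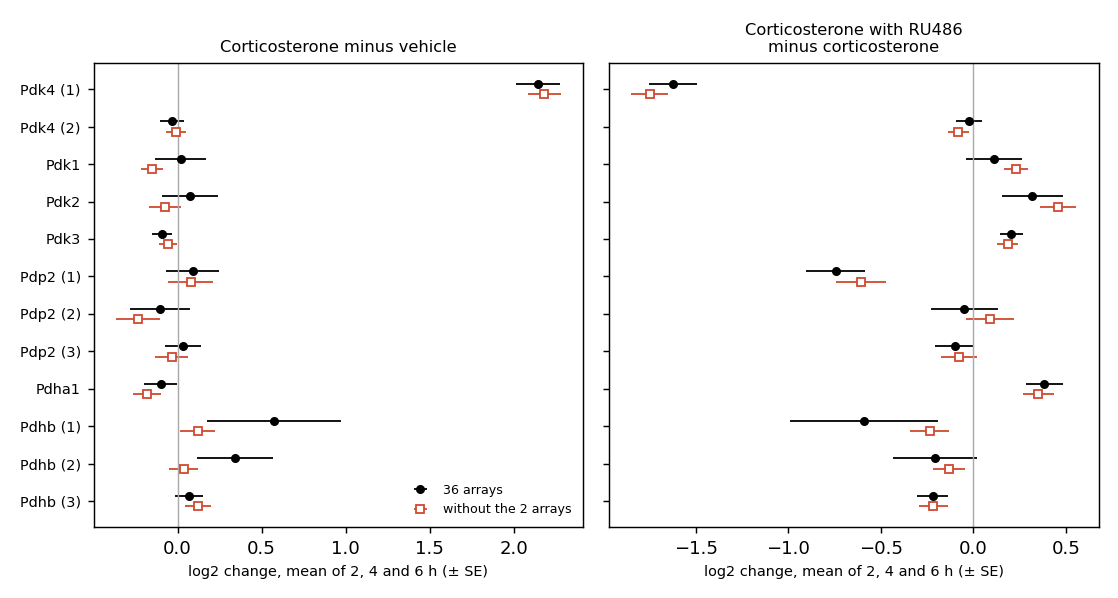
Mean log2 change over 2, 4 and 6 h (± SE) of the 12 tested member probes for corticosterone minus vehicle (left) and corticosterone with RU486 minus corticosterone (right), 9 arrays a treatment; numbers in brackets order the probes of a gene by brightness and open squares leave out the 2 arrays that stand apart. The brighter Pdk4 probe is at 2.15 on the left and -1.62 on the right, and the other 11 lie between -0.11 and 0.58 on the left.

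Pdp2, a phosphatase that reverses the kinases' action, gave no call for corticosterone against vehicle in the fit of all arrays, equally weighted. Its brightest probe was lower when RU486 was added. That probe, ILMN_3134598, read 1403.3, 1496.1 and 1635.6 with corticosterone at 2 h, 828.4, 1173.5 and 1117.6 at 4 h, and 1013.6, 1044.4 and 1062.7 at 6 h. With both agents it read 693.6, 1231.8 and 1235.3 at 2 h, 714.7, 661.2 and 694.2 at 4 h, and 670.7, 630.6 and 279.4 at 6 h. The arrays with both agents were all below those with corticosterone of the same time. The mean change was -0.74 (SE 0.16, adjusted p = 0.00225), and -0.61 (adjusted p = 0.0012) without the 2 arrays, and it was called in 28 of 28 alternatives. At 6 h alone the change was -1.08 (adjusted p = 0.0466), a call that was lost without corticosterone with RU486 6 h replicate 3 and without each corticosterone array, and was -0.68 (adjusted p = 0.159) without the 2 arrays, where 3.37% of all probes were called.

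With RU486 alone the same probe differed from vehicle most at 4 h. At 2 h it read 637.1, 1291.5 and 1533.9, which overlaps the vehicle arrays at 1279.8 to 1882.5, and at 6 h the difference was -0.06 (95% interval -0.63 to 0.50). It read 447.5, 641.2 and 580.6 with RU486 at 4 h against 1087.7, 998.7 and 884.5 with vehicle, groups that did not overlap. The change was -0.84 (SE 0.27, adjusted p = 0.396) with all arrays, and the same size was called without the 2 arrays (SE 0.22, adjusted p = 0.0337, 3.98% of all probes called). Averaged over the times the change was -0.47 (adjusted p = 0.316) for RU486 alone and -0.65 (adjusted p = 0.0595) for both agents against vehicle. The second was -0.53 (adjusted p = 0.0291) without the 2 arrays. Corticosterone alone gave 0.09 (95% interval -0.24 to 0.42).

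The other tested Pdp2 probes were not called for RU486 in the fit of all arrays, equally weighted. ILMN_2477276 differed by -0.05 (95% interval -0.42 to 0.32) and ILMN_3057482 by -0.10 (-0.32 to 0.12) when RU486 was added to corticosterone, so the probes of this gene disagreed in call there. Both fell over time in vehicle: ILMN_2477276 read 653.4, 573.2 and 565.7 at 2 h, 345.9, 358.2 and 411.1 at 4 h, and 124.0, 250.4 and 313.2 at 6 h. Every 2 h array lay above every later one. The change from 2 to 6 h was -1.48 (SE 0.31) and for ILMN_3057482 -1.05 (SE 0.18), with adjusted p = 0.0115 and 0.00322 from an F test over the 3 times. The ILMN_2477276 call was lost when vehicle 6 h replicate 1 alone was left out (-1.09, adjusted p = 0.0524). Both calls were lost in the fit on the vehicle arrays alone (adjusted p = 0.657), where 0 of the 28397 probes were called. Without the 2 arrays these were -1.09 and -0.84, and ILMN_3134598 passed as well at -0.76 (adjusted p = 0.0464; -0.79 and 0.0898 with all arrays). With corticosterone, ILMN_2477276 read 423.7, 417.2 and 433.2 at 2 h and 265.4, 307.8 and 290.6 at 4 h. It lay wholly below vehicle at both times (-0.49 and -0.37), and overlapped it at 6 h. These changes were not called with equal weights. With array weights a Pdp2 probe was called for corticosterone at 4 h, where 9840 of the 28397 probes were called.

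**Figure D4:**
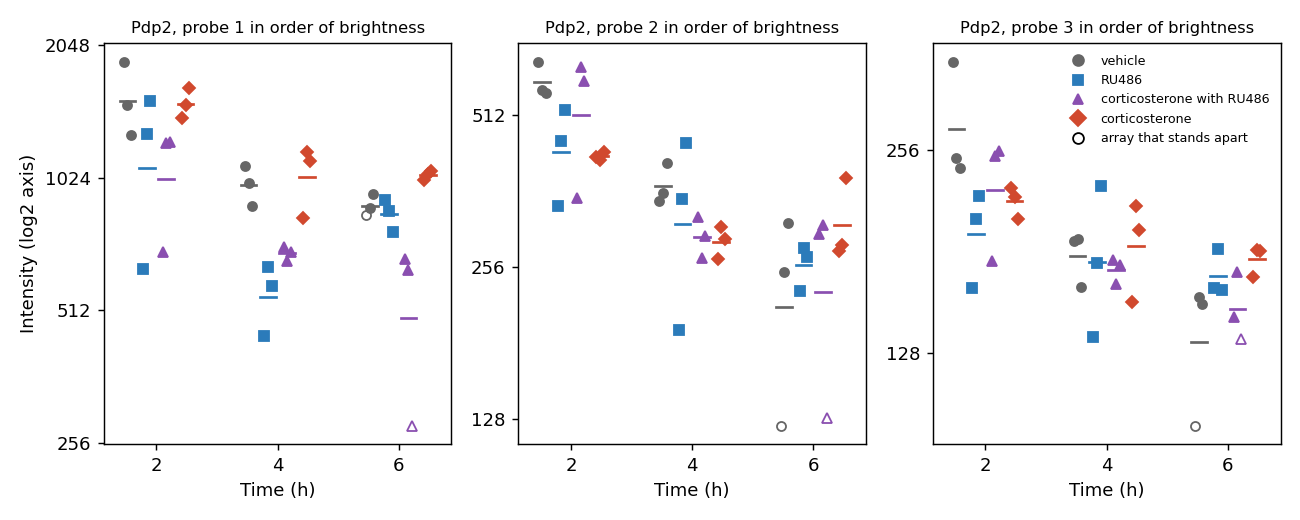
Intensity (log2 axis) of the 3 tested Pdp2 probes, each in its own panel with its own axis, against time in hours, 3 arrays a group; bars are means of log2 values and open symbols the arrays that stand apart. In the first panel all arrays with both agents lie below the corticosterone arrays of their time, while in the other panels the 2 h vehicle arrays lie highest among the vehicle arrays.

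In vehicle over time, limma called 2 of the 12 member probes, both of Pdp2, beside 10.8% of all probes. It called 4 when the 2 arrays were left out, beside 16.6% of all probes, and the added ones were the brightest Pdp2 probe and a Pdhb probe. That probe, ILMN_3116570, read 304.8, 272.7 and 344.5 at 2 h and 646.8 and 630.9 on the remaining 6 h arrays, a change of 1.06 (SE 0.16, adjusted p = 8.08e-05). With the 6 h array that stands apart, at 95.2, the change was 0.15. RU486 alone against vehicle called 0 members at each time and over their mean by limma, where 0.0%, 0.00352%, 0.0% and 0.0458% of all probes were called. Unadjusted p-values under 0.05 were seen for 3, 1, 2 and 4 of the 12 members. Both agents against vehicle likewise called 0 members, with 2, 0, 5 and 4 at an unadjusted p under 0.05, where 0.0%, 0.0%, 0.0317% and 0.401% of all probes were called.

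The wider pathway was read from 5 lists of 60 genes, 52 of which were tested. A gene counts where any of its probes is called. Over the mean of the times corticosterone against vehicle gave 0 higher and 1 lower, beside 2.52% of all probes, counted by probe. The 1 was Ppargc1b, a coactivator of mitochondrial and nuclear receptor genes, at -0.29 (SE 0.07, limma adjusted p = 0.0155). The list medians ran from -0.07 (pyruvate supply and its other fates) to 0.17 (the branched-chain ketoacid dehydrogenase, whose kinase is related to the Pdk family), beside -0.02 for all probes. At 6 h 1 gene was called, beside 0.838% of all probes: Ppm1k, the phosphatase of that related complex, was higher by 0.83 (SE 0.18). Over the mean its probes ran from 0.003 (ILMN_2488510) to 0.42 (ILMN_2923615), and none was called. Without the 2 arrays the count over the mean was 7 higher and 6 lower of 52, where 10.9% of all probes were called. Lpin1, a coactivator and phosphatidate phosphatase, was then higher by 0.60 (SE 0.11). With all arrays Lpin1 was at 0.86 (adjusted p = 0.0911).

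Adding RU486 to corticosterone gave 7 genes higher and 6 lower of the 52. Of pyruvate supply and its other fates, 3 of 12 were called. Ldha, a subunit of lactate dehydrogenase, was higher by 0.45 (SE 0.10) and Acly, ATP citrate lyase, by 0.41 (SE 0.09), while the mitochondrial alanine transaminase Gpt2 was at -0.48 (SE 0.11). Of fatty acid oxidation, the acyl-CoA dehydrogenase Acadvl (-0.56, SE 0.13) and the carnitine palmitoyltransferase Cpt2 (-0.39, SE 0.12) were lower. Cpt1c (0.27, SE 0.08) and Angptl4, an inhibitor of lipoprotein lipase (0.47, SE 0.11), were higher.

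Of 12 tested transcription factors and coactivators reported to act on Pdk genes, 4 were called when RU486 was added. Ppargc1b (0.42, SE 0.07), Ppard (0.47, SE 0.11) and Cebpb (0.33, SE 0.10) were higher, and Lpin1 was lower at -0.94 (SE 0.27). Cebpb was also the 1 listed gene called for both agents against vehicle, at 0.52 (SE 0.10), beside 0.401% of all probes. Leaving out the 2 arrays, 16 genes had a probe called higher and 12 a probe called lower, with Cpt2 counted in both, beside 27.4% of all probes. For RU486 alone against vehicle 0 of 52 were called over the mean, with and without the 2 arrays, beside 0.0458% and 1.31% of all probes. The 13 called of 52 compare with 10.4% of all probes, counted by probe rather than by gene.

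Genes whose levels followed Pdk4 most closely over the 12 group means were found by Pearson's correlation, which describes these groups and has no test. Fkbp5, a chaperone of the glucocorticoid receptor, was first (r = 0.983), followed by Bcat1, a transaminase of branched-chain amino acids (0.976), the sodium-proton exchanger Slc9a3 (0.976), Fam107a (0.962) and Slc10a6 (0.960). Smox, spermine oxidase (0.958), Tsc22d3, also called GILZ (0.953), and the connexin Gjb6 (0.953) completed the 8. The most opposite were the potassium channel Kcna6 (-0.878), the chemokine Cxcl10 (-0.860), Ptx3 (-0.860) and the Wnt receptor Fzd5 (-0.858). The 12 points share arrays and treatments between all genes.

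The other members with a call had other neighbours. For Pdha1 the closest was Nhlrc3 (0.958), whose r fell to 0.716 without the 2 arrays, then Hpcal1 (0.954; 0.907) and Itm2b (0.951; 0.923). For Pdk3 it was Nfe2l3 (0.950), whose r fell to 0.441 without the 2 arrays, then Myh14 (0.948) and Sdhaf1, an assembly factor of succinate dehydrogenase (0.946; 0.960 without them). For Pdp2 (ILMN_3134598) it was Pgp (0.931), and the most opposite were Cd200 (-0.962) and Snph (-0.959). Pgp was also among the most opposite to Pdk3 (-0.943).

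Markers of the labelled cell type were present: 8 of 10 astrocyte genes exceeded 2 times the array median on every array, Gjb6 did so on some and S100b on none. Of other types, 2 of 6 neuron genes (Map2 and Stmn2), 2 of 7 oligodendrocyte lineage genes (Pdgfra among them), 1 of 5 fibroblast genes, 0 of 6 microglia genes and 0 of 5 endothelial genes did so. Other genes exceeded that level on part of the 36 arrays. Among microglia genes these were Cx3cr1 (34 arrays), Csf1r (27), Aif1 (23), C1qa (23) and Tmem119 (4). Col1a1 (35 arrays) and Dcn (31) of the fibroblast genes and Syt1 (23) of the neuron genes did so too. Snap25 and Nefl (neuron), Itgam (microglia), Mog (oligodendrocyte) and Cldn5 (endothelium) stayed near the array median throughout. Over the mean of the times, corticosterone raised 3 of 9 tested astrocyte markers, Aldoc, Gjb6 and Ndrg2, and called 0 markers of any other type, beside 2.52% of all probes. Leaving out the 2 arrays, Gfap (astrocyte), Map2 (neuron) and Csf1r (microglia) were also called, each lower, beside 10.9% of all probes. The summed astrocyte markers ran from 74508.8 to 100908 with corticosterone and from 74788.3 to 111268 with vehicle, and their part in the change of Pdk4 was not tested. When RU486 was added, 1 astrocyte marker was higher and 2 lower (Gfap, Gjb6 and Ndrg2), and Stmn2 (1 of 4 neuron markers) and Csf1r (1 of 5 microglia markers) were higher, beside 10.4% of all probes. With the 2 arrays left out, 1 astrocyte marker was higher and 5 lower (Aldoc, Gfap, Gjb6, Ndrg2, Slc1a2 and Slc1a3), Syt1 (neuron) was called as well, lower, and Col1a1 (1 of 4 fibroblast or meninges markers) higher, beside 27.4% of all probes. The median change of the tested fibroblast or meninges markers was 0.37 (0.26 without the 2 arrays), where that of all probes was 0.00 (-0.01), and their summed level ran from 1100.6 to 1568.5 with corticosterone and from 1374.9 to 2333.0 with both agents. The summed microglia markers ran from 1016.5 to 1664.0 with corticosterone and from 1192.5 to 1632.5 with both agents, and the summed neuron markers from 7031.8 to 8170.4 and from 7476.2 to 13127.9 (9551.5 without the array that stands apart). The part of these markers in the changes of Pdk3, Pdha1 and Pdp2 was not tested.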

How the data were processed

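RNA of the 36 samples was labelled as biotin cRNA and hybridised to Illumina bead arrays, per the labels' protocols. The intensities deposited by the authors are on a linear scale and come from GenomeStudio, per the submitters' processing notes (version not given in the sources used here). Their sorted columns differ by at most 1.15%, so they were quantile-normalized, and no background was subtracted, which understates fold changes of dim probes. Depth has no meaning for arrays; the number of arrays limits the precision. A further table of raw signals has 72 columns under running numbers that match no label, and these were not used beyond their probe names.

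Here values were taken to log2, probes brighter than the array median on at least 3 arrays were kept (28397), and 12 group means were fitted with limma 3.58.1 (lmFit and eBayes, R 4.3.3), with Benjamini-Hochberg adjustment over all of them and a threshold of 0.05. Each probe was tested on its own, and the fit was tested on simulated data. Of the probes, 27740 carried a current gene name, 8037 were renamed through an older name and 9504 kept theirs. Alternatives covered the filter, background, array weights, prior, the arrays fitted, a replicate block and leaving out arrays. All member probes are described; called pathway genes are named (for corticosterone at most 6), except some that are not reported here, and for each called member the 8 most alike and 4 most opposite genes were found, of which the text names the first few. Members and lists were chosen with earlier results of these data known.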

Additional observations from a re-analysis of the deposited data

Results flagged for a closer look

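The corticosterone effect on Pdk4 (brighter probe) differed between cultures without and with RU486, by 1.97 on the log2 scale (SE 0.18) in a limma test of the difference itself, adjusted p = 9.69e-08, averaged over 2, 4 and 6 h. It was called in 46 of 46 alternatives, at 1.89 to 2.14.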

How the results depend on the processing

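The counts below are of the 12 member probes called by limma. For Pdk4, the mean change with corticosterone was called in 28 of 28 alternatives (2.07 to 2.24), as was the mean change when RU486 was added (-1.80 to -1.54). Fitting only the groups compared moved the corticosterone counts from 1 to 0 at 2 h, 1 to 2 at 4 h and 1 to 0 at 6 h. For RU486 added to corticosterone it moved them from 1 to 2 at 2 h, 1 to 5 at 4 h and 2 to 0 at 6 h, for RU486 alone at 4 h from 0 to 1, for both agents against vehicle at 4 h from 0 to 4, and for vehicle over time from 2 to 0. Array weights gave 5 at 4 h and 4 over the mean for corticosterone, 4 at 4 h and 2 over the mean for RU486 alone, and 3, 8, 5 and 8 at 2, 4, 6 h and over the mean for RU486 added to corticosterone. For both agents against vehicle the weights gave 4 at 4 h (10248 probes), 5 at 6 h (4145) and 3 over the mean (6076). They gave 6 for the difference of effects (10329), 1 for the effect at 6 against 2 h (134) and 6 for vehicle over time (9040). Without the 2 arrays that stand apart the counts were 1 at 2 h, 4 h and over the mean for RU486 alone. There 789, 1129 and 372 of all probes were called. For RU486 added to corticosterone they were 2, 2, 1 and 7 (2399, 4261, 958 and 7781 of all probes). Both agents against vehicle gave 3 over the mean (1335), the difference of effects 2 (5115) and vehicle over time 4 (4717). No filter, normexp with an offset of 16 and a trended robust prior each gave 1 for RU486 added to corticosterone at 6 h, and keeping the brightest probe of a gene gave 0 for vehicle over time. Leaving out 1 array gave 1 to 3 for corticosterone at 6 h and 0 to 3 for RU486 alone at 6 h. Of all probes, those fits called 118 to 5931 and 0 to 7195. RU486 added to corticosterone had 0 to 1 at 2 h, 1 to 2 at 6 h and 3 to 4 over the mean. Those fits called 40 to 106, 109 to 396 and 2204 to 3441 of all probes. Both agents against vehicle had 0 to 1 at 6 h (0 to 1763) and 0 to 3 over the mean (38 to 552). Vehicle over time had 2 to 4 (1015 to 10865). The member probes called were not the same in every fit. Pdk3 was called in 21 of 28 alternatives. With array weights Pdk1 reversed to -0.15 for corticosterone and 0.24 for RU486 added at 6 h. For the difference of effects Pdk1 reversed to -0.28 without the 2 arrays and -0.26 with weights, and Pdk2 to -0.37 with weights. Apart from what leaving out those arrays shows, the cause was not tested. Replicate numbers showed no general pairing of the arrays (median r of deviations 0.0356 over 198 same-number pairs, -0.018 over 396 others). Single pairs ran from -0.798 to 0.796 and from -0.807 to 0.812, and pairing within some groups was not tested. A replicate block left each count as it was, such as 1 for corticosterone and 4 for RU486 added, over the mean. Dim probes near the array median limit what can be measured.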
